A study of Danio rerio with 16 samples.

Results

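The collagen genes of the zebrafish testis were 57 of the 32520 genes in the deposited count table. They were chosen by name alone, as every gene whose Ensembl GRCz11 symbol, written in lower case, begins with col, a type number, the letter a and a chain number. Members covered 22 collagen types. The family was taken up with earlier results of these data known, so its counts against all genes are a description. They were grouped by the kind of structure their protein builds, with 15 fibrillar, 6 basement membrane (type IV), 5 microfibrillar (type VI), 12 FACIT (fibril-associated), 3 multiplexin, 4 transmembrane, and 12 network-forming or other genes. The table held 16 RNA-seq libraries from testes of the AB strain. They formed 4 groups of 4 libraries, namely diploid controls, diploids exposed to 17α-ethinyl estradiol (EE2), triploid controls and triploids exposed to EE2. EE2 is a synthetic estrogen. The labels used here state no dose, exposure time or age, and do not say how many fish a library represents. P-values therefore weigh differences between group means against the spread between these libraries only, which is estimated over all 4 groups.

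Collagens are secreted or membrane-bound proteins whose chains wind into a triple helix, and they are the main structural proteins of animal extracellular matrix. Fibrillar collagens (types I, II, V, XI, XXIV and XXVII) assemble into fibrils that resist stretching. Type IV forms the sheet-like network of basement membranes, and type VI forms beaded microfibrils that lie close to basement membranes and cell surfaces. In the testis, germ cells and Sertoli cells sit on a basement membrane that encloses the tubule, and collagen-producing peritubular and interstitial cells lie outside it. FACIT collagens bind to the surface of fibrils. Multiplexins are basement-membrane-associated proteins that carry sugar chains, and transmembrane collagens anchor or contact cells.

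A library of the triploid EE2 group (replicate 2) carries the word outlier in its submitted title, and it was left out of the main comparisons. It held the highest collagen content of all 16 libraries, so this choice bears directly on the results. The share of its assigned pairs that fell on collagen genes was 0.531%, with a 95% Wilson interval from 0.5264 to 0.535% that covers counting error only. The other 3 triploid EE2 libraries had shares of 0.216 to 0.247%. In it, 16 of the 55 tested collagen genes (29.1%) were above every other library, against 13.9% of all 23007 tested genes. Its summed leukocyte markers were also the highest of the 16, at 518 CPM (counts scaled to a fixed library total) against 47.4 to 242 elsewhere. Of the other 15 libraries, diploid EE2 replicate 1 had the highest erythrocyte marker sum (992 CPM, against 82.2 to 172 in the other 14). Diploid control replicate 1 had the lowest collagen share (0.141%). Library totals ran from 7052508 to 17369549 read pairs assigned to genes. Markers of germ cells and Sertoli cells were detected in every library. Sertoli cell sums were lower in every triploid than in every diploid library. Germ cell sums overlapped between several groups, and no germ cell marker passed in any comparison described below. Without the titled outlier, germ cell sums were 5162 to 5723 CPM in diploid controls, 4106 to 5520 in diploid EE2, 5710 to 5918 in triploid controls and 5000 to 5361 in triploid EE2. Sertoli cell sums were 925 to 1440, 1283 to 1803, 367 to 521 and 378 to 511 CPM in the same order. In the titled outlier the germ cell sum was 3492 CPM, the lowest of the 16 libraries, and the Sertoli cell sum was 588 CPM. The part of germ cells and Sertoli cells in the collagen differences was not tested.

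Collagen genes took 0.219% ± 0.0593 of read pairs in diploid controls (SD, n = 4), 0.339% ± 0.0401 in diploid EE2 (SD, n = 4), 0.248% ± 0.0273 in triploid controls (SD, n = 4) and 0.23% ± 0.0154 in triploid EE2 (SD, n = 3). The lowest diploid EE2 library (0.289%) lay above the highest diploid control (0.285%). The triploid groups overlapped, at 0.228 to 0.286% in controls and 0.216 to 0.247% under EE2.

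To compare genes of different length, levels are given as CPM per kilobase of exon, scaled by TMM (trimmed mean of M values) library factors. The factor of diploid control replicate 1 was 0.7744, against 0.964 to 1.067 in the other libraries, which raises its scaled levels. Its col6a1 level, for example, was 14.8 unscaled and 19.1 scaled. The shares of read pairs given above are not scaled in this way. In diploid control testes, type I collagen stood at the top of the family. col1a1b (chromosome 12, 3095699 to 3133483, minus strand, GRCz11), which encodes a type I chain, was highest at 52.7 ± 7.2 (SD, n = 4), with 45.5, 54.9, 48.6 and 61.8 in replicates 1 to 4. Its lowest diploid control library lay above the highest library of any other collagen gene in that group. col1a2 (chromosome 19, 40983221 to 41002980, plus strand), which encodes the other main kind of type I chain, followed at 25.7 ± 6.22. The fibrillar genes col5a2a (21.5 ± 3.63), col24a1 (19.4 ± 5.91) and col5a3b (19.2 ± 6.88) and the type VI gene col6a2 (19.6 ± 4.45) came next. The ranges of these 4 genes and of col1a2 overlapped across the 4 libraries, so their order was not resolved. The short gene model of col24a1 (1185 bases) makes its level per kilobase less certain.

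The basement membrane, multiplexin and FACIT classes each had a leading gene within the upper 13 of the family. col18a1a, a multiplexin gene whose product lies in basement membranes, was at 15.9 ± 5.25 (SD, n = 4) in diploid controls. col4a1, col4a5 and col4a2 were at 13.9 ± 2.95, 12.9 ± 6.97 and 11 ± 2.07. col16a1, a FACIT gene, was at 10.1 ± 3.26. Cartilage collagens were far lower, with col2a1a at 3.22 ± 1.48 and col11a1a at 4.29 ± 1.64. At the bottom, col8a1a (0 to 4 read pairs in a library) and col9a1b (0 to 12 read pairs) were too low to be tested. The other 55 members passed the low-count filter.

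**Figure D1:**
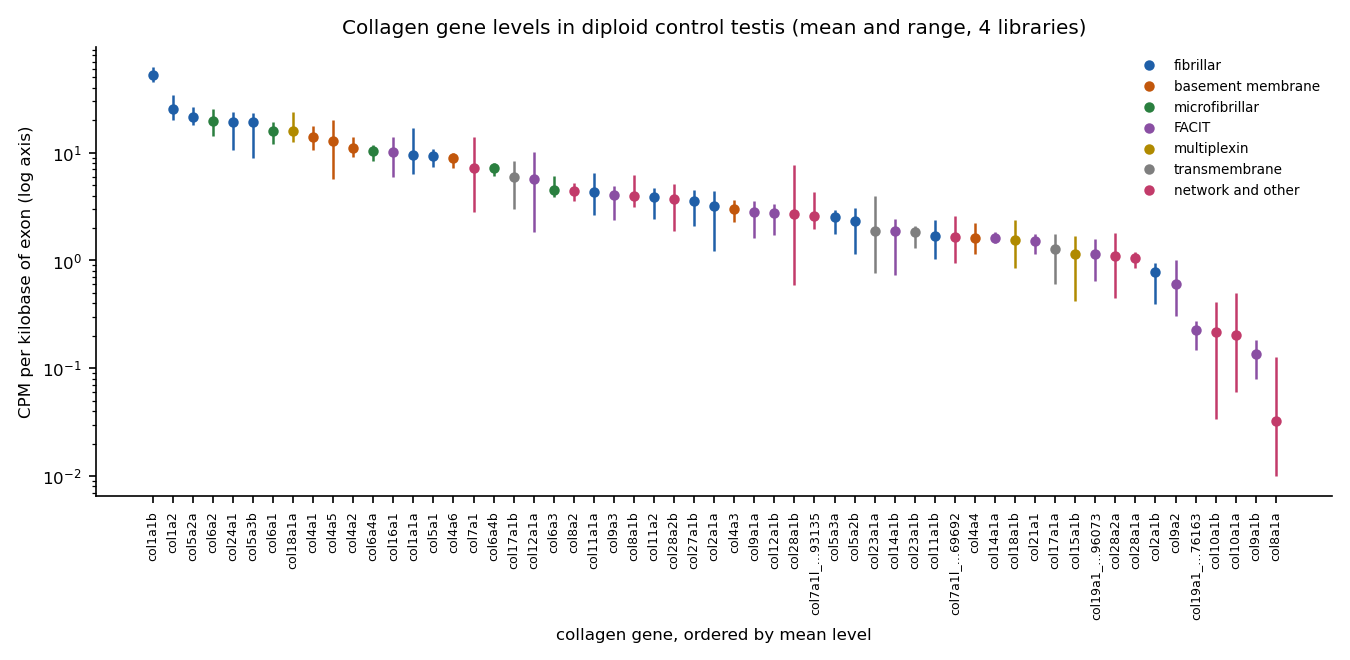
Level of each collagen gene in the 4 diploid control libraries, in CPM per kilobase of exon on a log axis, with the mean and the range from lowest to highest library, coloured by class. col1a1b is highest at a mean of 52.7. A lowest value of 0 is drawn at 0.01.

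Several members lie next to each other in the genome. On chromosome 9, col4a1 (8634229 to 8670158, minus strand) and col4a2 (8761099 to 8882901, plus strand) lie head to head with their annotated starts 90941 bases apart. On chromosome 7, the starts of col4a6 and col4a5 are 753 bases apart, and on chromosome 15 the 5′ ends of col4a4 and col4a3 overlap on opposite strands. On chromosome 11, col6a2 (33921358 to 33960318) and col6a1 (33996526 to 34065718) lie in tandem on the minus strand with 36208 bases between them. Across the 15 libraries, the ratio between neighbouring chains was steadier for some pairs than for others. The level of col4a1 relative to col4a2 had a median of 1.3 and ranged only from 1.19 to 1.43. col6a1 relative to col6a2 ranged from 0.663 to 1.01 (median 0.826). col4a5 relative to col4a6 ranged more widely, from 0.747 to 3.92 (median 1.67), and col4a3 relative to col4a4 from 1.14 to 3.26 (median 2.2). Among chains on different chromosomes, col5a1 relative to col5a2a ranged from 0.396 to 0.584 and col1a1b relative to col1a2 from 1.27 to 3.09. These ratios are descriptions over libraries that share each gene's length and library scaling.

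**Figure D2:**
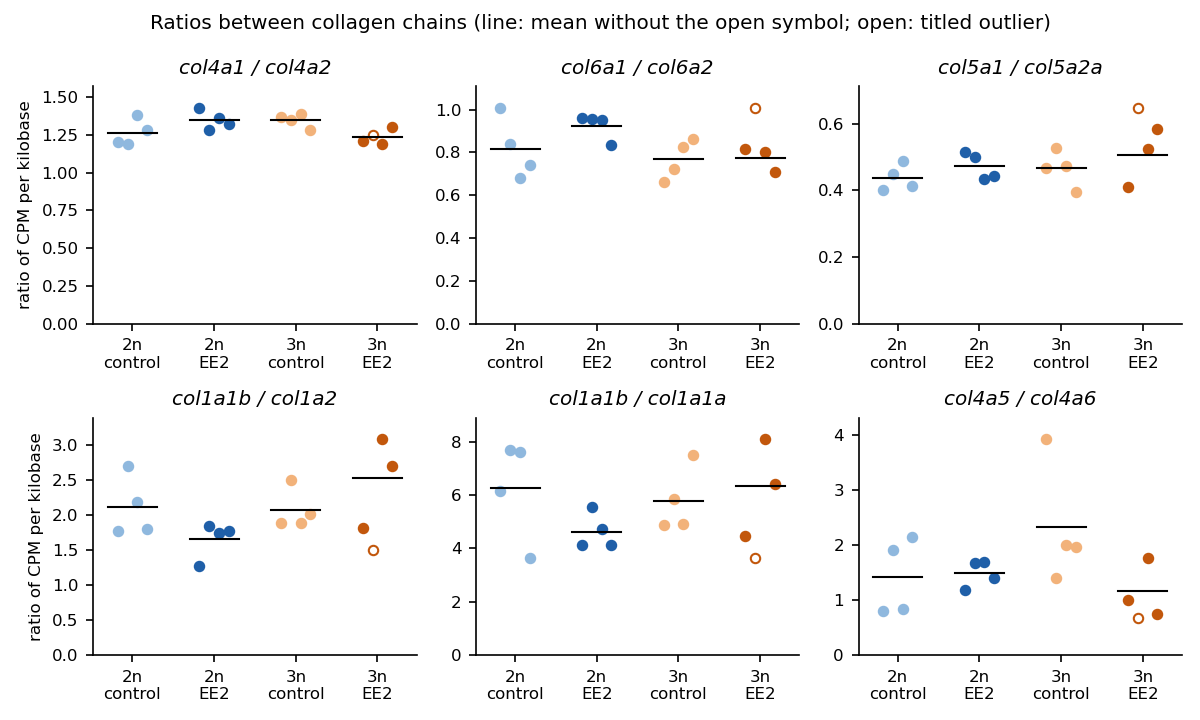
Ratio of the levels of paired collagen chains (CPM per kilobase over CPM per kilobase) in each library, by group; lines are group means without the submitter-titled outlier, which is the open symbol. The ratio of col4a1 to col4a2 stays between 1.19 and 1.43 in the 15 libraries used, and that of col4a5 to col4a6 runs from 0.747 to 3.92.

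In diploid testes, RNA levels of some type VI, IV, V and XII collagen genes were higher under EE2 than in controls. Of the 55 tested members, 8 were higher in EE2 than in control diploids (14.5%) and 0 were lower, at an adjusted p under 0.05 in edgeR's quasi-likelihood test with Benjamini-Hochberg adjustment over 23007 genes. The background for the same test was 2.36% of all genes changed, 1.94% higher and 0.422% lower. Of the 8, 3 were microfibrillar (of 5 tested), 2 basement membrane (of 6), 2 fibrillar (of 15) and 1 FACIT (of 11). None of the 3 multiplexin, 4 transmembrane or 11 network-forming and other genes passed. In bulk tissue, a larger share of collagen-producing cells and more collagen RNA per cell cannot be told apart. With the titled outlier included in the fit, 4 of the 8 calls were left, namely col4a1, col4a2, col6a4b and col12a1b. The share of all genes changed fell as well, from 2.36% to 1.12%. That library is in neither group compared here, but all 4 groups share 1 estimate of spread. The log2 estimates of the 8 genes ran from 0.77 to 1.41 without it and from 0.75 to 1.4 with it.

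Type VI collagen is a heteromer in which the products of col6a1 and col6a2 join a longer chain such as that of col6a3. The level of col6a1 was 19.1, 12.1, 13.5 and 18.7 CPM per kilobase in diploid controls and 49.6, 31.5, 39.2 and 32.6 under EE2. Every EE2 library lay above every control. The log2 fold change was 1.29 ± 0.21 (SE; adjusted p = 0.0038 in edgeR). col6a2 was at 18.9, 14.4, 19.9 and 25.2 in controls and 51.6, 32.8, 41.2 and 39.0 under EE2, again without overlap, with a log2 fold change of 1.09 ± 0.19 (adjusted p = 0.0058 in edgeR). With the titled outlier included, the edgeR adjusted p of col6a1 became 0.088 and that of col6a2 0.072, at log2 estimates of 1.27 and 1.07. The third called type VI gene was col6a4b (chromosome 13, 45709380 to 45774815, plus strand), which encodes a chain related to that of col6a3. It was at 6.11, 7.55, 7.22 and 7.95 in controls and 11.6, 10.4, 13.6 and 15.4 under EE2 (log2 fold change 0.83 ± 0.13, adjusted p = 0.004 in edgeR). Its groups did not overlap, and its call was kept with the titled outlier included. The other 2 type VI genes did not pass in the main edgeR fit. col6a3 went from 4.53 ± 1.08 to 8.41 ± 2.38 (SD, n = 4 each; log2 difference 0.91, edgeR adjusted p = 0.11) and col6a4a from 10.3 ± 1.46 to 15.7 ± 2.7 (log2 difference 0.61, edgeR adjusted p = 0.098). DESeq2 called both col6a3 (adjusted p = 0.036) and col6a4a (adjusted p = 0.039). Without triploid EE2 replicate 1, edgeR called col6a4a (adjusted p = 0.034).

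Summed over the 5 genes, the type VI level was 57.5 ± 8.07 CPM per kilobase in diploid controls, 116 ± 19.6 in diploid EE2, 56.5 ± 9.86 in triploid controls (SD, n = 4 each) and 64.3 ± 6.99 in triploid EE2 (SD, n = 3). Type VI made up 15.4% ± 2.33 of the summed collagen level in diploid controls and 21.2% ± 2.03 in diploid EE2. In triploids it made up 13.8% ± 1.42 in controls and 17.4% ± 0.709 under EE2.

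**Figure D3:**
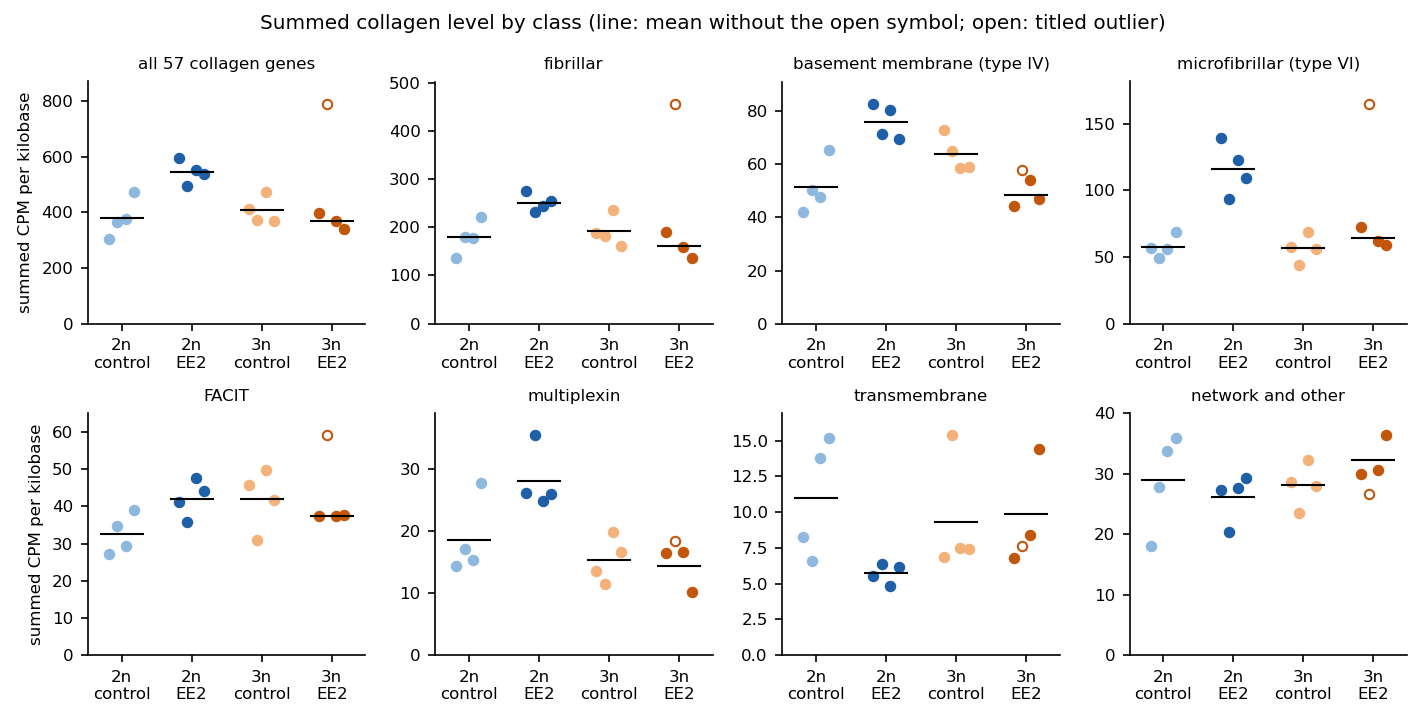
Summed level of each collagen class in every library, in CPM per kilobase of exon, by group; points are libraries, lines are group means without the submitter-titled outlier, and the open symbol is that library. Type VI averages 57.5 in diploid controls and 116 in diploid EE2, while the triploid means are 56.5 and 64.3.

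Type IV collagen of most basement membranes combines the chains encoded by col4a1 and col4a2. col4a1 was at 13.2, 10.7, 14 and 17.8 CPM per kilobase in diploid controls and 32.1, 22.4, 26.4 and 19.9 under EE2. col4a2 was at 11, 9.05, 10.1 and 13.9 in controls and 22.5, 17.4, 19.4 and 15.1 under EE2. Neither gene's groups overlapped. The log2 fold changes were 0.87 ± 0.16 for col4a1 (adjusted p = 0.0084 in edgeR) and 0.77 ± 0.14 for col4a2 (adjusted p = 0.0074 in edgeR). Both calls were kept in each of the 15 fits that left out 1 library and in the fit with the titled outlier. The chains of col4a3, col4a4, col4a5 and col4a6 build the more specialised type IV networks. None of these 4 passed, with log2 differences from 0.12 for col4a4 to 0.53 for col4a3.

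Among fibrillar genes, the type V genes col5a1 and col5a2a passed. Type V collagen is a minor partner of type I that helps to start fibrils and limit their width. col5a1 (chromosome 21, 6556635 to 6725780, plus strand) was at 7.33, 9.78, 9.59 and 10.9 CPM per kilobase in diploid controls and 19.9, 16, 17.2 and 15.4 under EE2. The groups did not overlap, and the log2 fold change was 0.88 ± 0.14 (adjusted p = 0.0039 in edgeR). col5a2a was at 18.2, 21.7, 19.7 and 26.5 in controls and 38.7, 32.1, 39.7 and 34.8 under EE2 (log2 fold change 0.77 ± 0.18, adjusted p = 0.036 in edgeR), also without overlap. With the titled outlier included, the edgeR adjusted p was 0.26 for each of the pair, at log2 estimates of 0.86 for col5a1 and 0.75 for col5a2a. The call of col5a2a was also lost without any of diploid control replicates 1, 2 and 3, diploid EE2 replicates 1 and 3, triploid control replicate 1 or triploid EE2 replicate 3, with edgeR adjusted p up to 0.11, and in the fit with a replicate block.

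The type I genes col1a1b and col1a2 had the highest mean levels of the family in diploid controls. Both were higher in every diploid EE2 library than in any diploid control, but neither passed the test. col1a1b was at 45.5, 54.9, 48.6 and 61.8 CPM per kilobase in controls and 79.4, 67.8, 73.4 and 77.3 under EE2 (log2 difference 0.52, edgeR adjusted p = 0.11). col1a2 was at 25.7, 20.3, 22.2 and 34.4 in controls and 62.3, 36.8, 41.9 and 43.4 under EE2 (log2 difference 0.86, edgeR adjusted p = 0.11). Their paralogue and partner col1a1a (chromosome 3) went from 9.44 ± 4.99 to 16.5 ± 3.27 (SD, n = 4 each; edgeR adjusted p = 0.26). DESeq2 called both col1a1b (adjusted p = 0.049) and col1a2 (adjusted p = 0.037). The fibrillar genes col2a1a, col5a3b and col24a1 had log2 differences of −0.02, −0.02 and 0.09 and did not pass.

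The FACIT gene that passed was col12a1b (chromosome 20), a type XII gene whose product coats fibrils. It was at 1.72, 2.66, 3.19 and 3.32 CPM per kilobase in diploid controls and 7.86, 8.15, 6.96 and 5.87 under EE2, without overlap (log2 fold change 1.41 ± 0.30, adjusted p = 0.023 in edgeR). Leaving out diploid control replicate 1 or 2, or diploid EE2 replicate 1 or 3, ended that call, with edgeR adjusted p up to 0.076. Its paralogue col12a1a was at 5.47, 1.85, 5.5 and 10.1 in controls and 5.76, 9.22, 15.6 and 12.9 under EE2, and it did not pass (log2 difference 0.94, edgeR adjusted p = 0.27). Those ranges overlapped. The FACIT genes col14a1a and col16a1 had log2 differences of 0.07 and 0.16.

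The transmembrane class was the only one in which all members had a negative estimate in diploids, and none of its 4 genes passed. col17a1b, a type XVII gene whose product anchors epithelial cells to the basement membrane, was at 4.3, 3.03, 8.33 and 8.16 CPM per kilobase in diploid controls and 2.56, 2.51, 1.78 and 2.41 under EE2. Its groups did not overlap, yet the spread among controls was wide and the edgeR adjusted p was 0.19 (log2 difference −1.36). It was the only member of which every EE2 library was below every control, against 3.74% of all genes, while 12 members (background 5.11%) had every EE2 library above every control. The multiplexin gene col18a1a was at 15.9 ± 5.25 in controls and 24 ± 5.77 under EE2 (SD, n = 4 each; log2 difference 0.61, edgeR adjusted p = 0.26).

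The 11 tested network-forming and other genes held the widest spread of estimates in diploids, from −0.98 for col28a1b to 1.88 for col10a1a. col10a1a, a type X gene known from cartilage, had 2, 2, 12 and 5 read pairs in the 4 diploid control libraries against 28, 6, 7 and 32 in those under EE2, and did not pass (edgeR adjusted p = 0.26). col8a2, whose product forms the hexagonal network of type VIII, was at 4.37 ± 0.679 CPM per kilobase in controls and 4.25 ± 1.04 under EE2 (SD, n = 4 each). col7a1, which encodes the anchoring fibril collagen, was at 7.25 ± 5.36 and 6.26 ± 2.4, with wide spread in both groups.

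Over the whole family, 36 of the 55 estimates were positive and 19 negative, with a median log2 difference of 0.16, against −0.01 over all genes tested. The class medians were 0.91 for type VI, 0.61 for multiplexins, 0.41 for type IV, 0.16 for FACIT, 0.13 for fibrillar, −0.21 for network-forming and other genes and −0.66 for transmembrane genes.

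**Figure D4:**
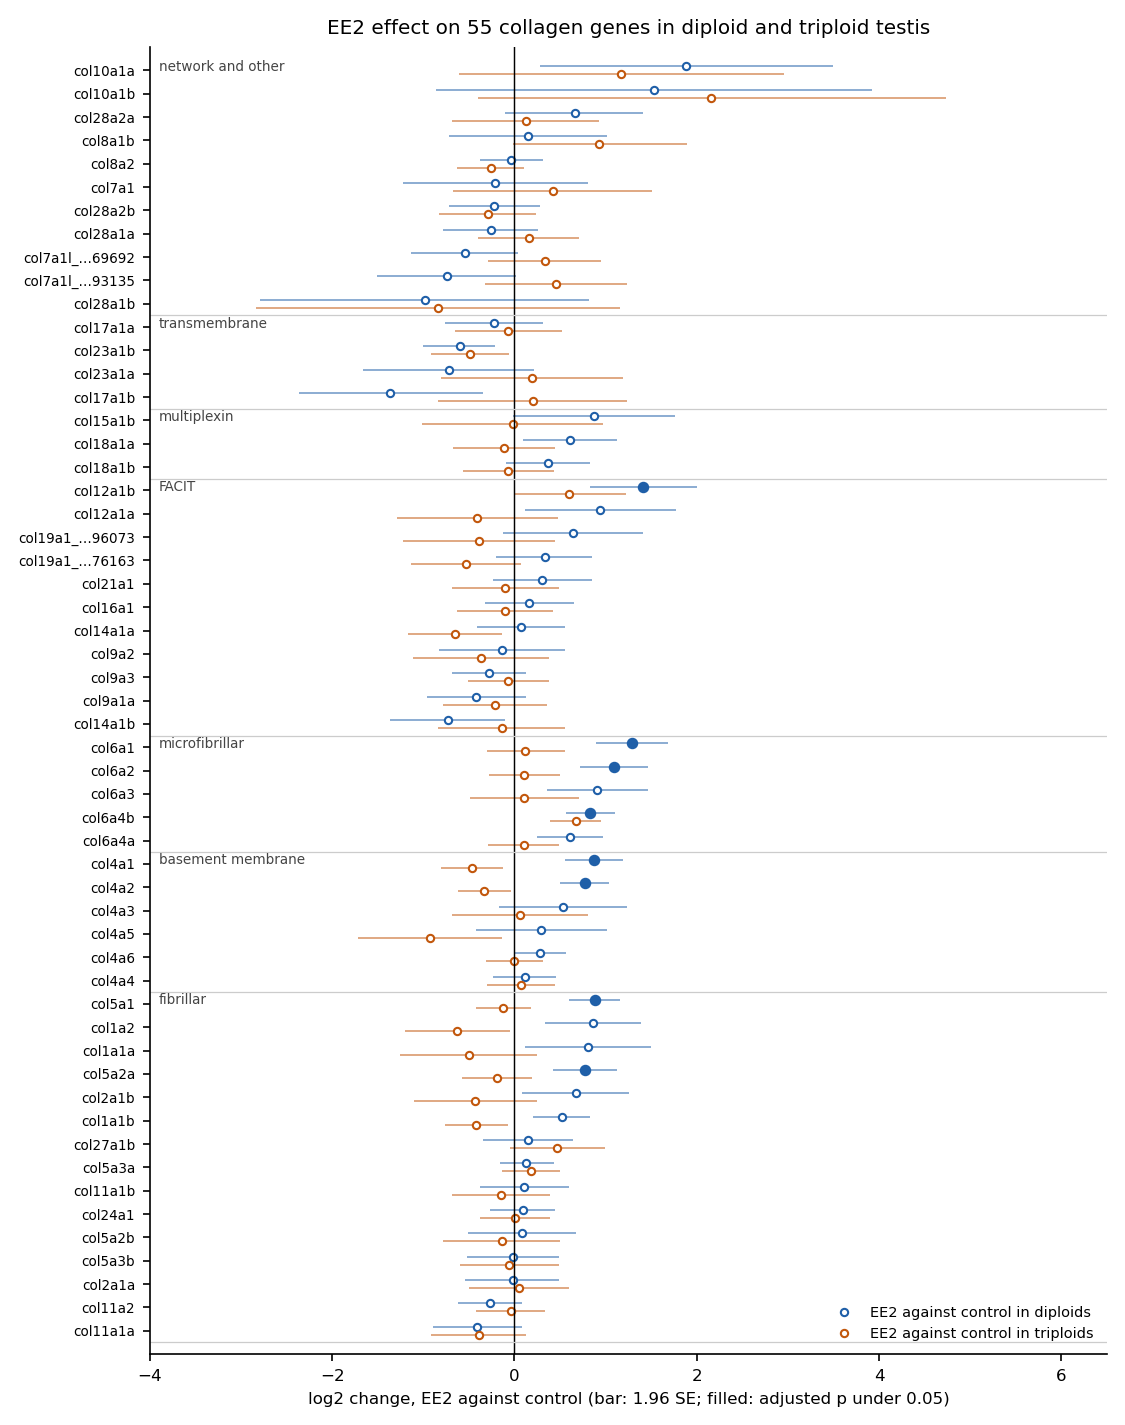
Log2 difference between EE2 and control for the 55 tested collagen genes, in diploids and in triploids (15 libraries, edgeR), with approximate 95% intervals and called genes marked. The 8 called genes are all in diploids and lie between 0.77 and 1.41.

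In triploid testes, 0 of the 55 collagen genes passed between EE2 and control in edgeR. The background was low, with 0.104% of all genes changed, 0.0609% higher and 0.0435% lower. At an unadjusted p under 0.05 there were 7 members (background 5.42%). DESeq2 called 1 (background 0.311%), col6a4b (adjusted p = 0.0093). col6a4b was at 4.83, 5.54, 5.7 and 6.33 CPM per kilobase in triploid controls and 8.11, 10.2 and 8.55 in EE2 replicates 1, 3 and 4. The groups did not overlap, and the log2 difference was 0.67 ± 0.14 (SE; adjusted p = 0.14 in edgeR). The titled outlier was at 9.05 for this gene, within the range of the other triploid EE2 libraries.

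col12a1b, also called in diploids, was at 3.45, 1.65, 4.47 and 2.95 in triploid controls and 6.92, 4.37 and 3.0 under EE2, with overlap (log2 difference 0.6, 95% interval −0.01 to 1.22, edgeR adjusted p = 0.96). For the other 6 genes called in diploids, the triploid estimates lay between −0.46 and 0.12. col6a1 was at 16, 11.2, 21 and 17.4 in triploid controls and 20.0, 17.5 and 16.5 under EE2, with a log2 difference of 0.12 (95% interval −0.30 to 0.55). col5a1 was at 9.39, 9.57, 11.4 and 8.9 in controls and 10.4, 9.31 and 7.55 under EE2, with a log2 difference of −0.12 (95% interval −0.42 to 0.18). Both genes' groups overlapped. col4a1 was at 17.0, 15.7, 17.7 and 16.3 in triploid controls and 12.6, 11.2 and 12.8 under EE2, where every EE2 library was below every control (log2 difference −0.46, edgeR adjusted p = 0.70). col4a2 had the same arrangement, at 12.4, 11.6, 12.7 and 12.7 in controls and 10.4, 9.45 and 9.83 under EE2 (log2 difference −0.33, edgeR adjusted p = 0.87). In the titled outlier these genes stood higher, at 52.9 for col6a1, 31.9 for col5a1, 18.9 for col4a1 and 15.1 for col4a2, each above every triploid control. With that library included, the estimate turned positive for col5a1 (0.59), col1a1b (0.34, from −0.42) and col1a2 (0.52, from −0.63), none of them called in edgeR. Of the 55 estimates, 22 were positive and 33 negative, with a median of −0.07 (0.01 over all genes). There were 2 members with every EE2 library above every triploid control (background 5.29%) and 4 with every one below (background 3.6%).

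**Figure D5:**
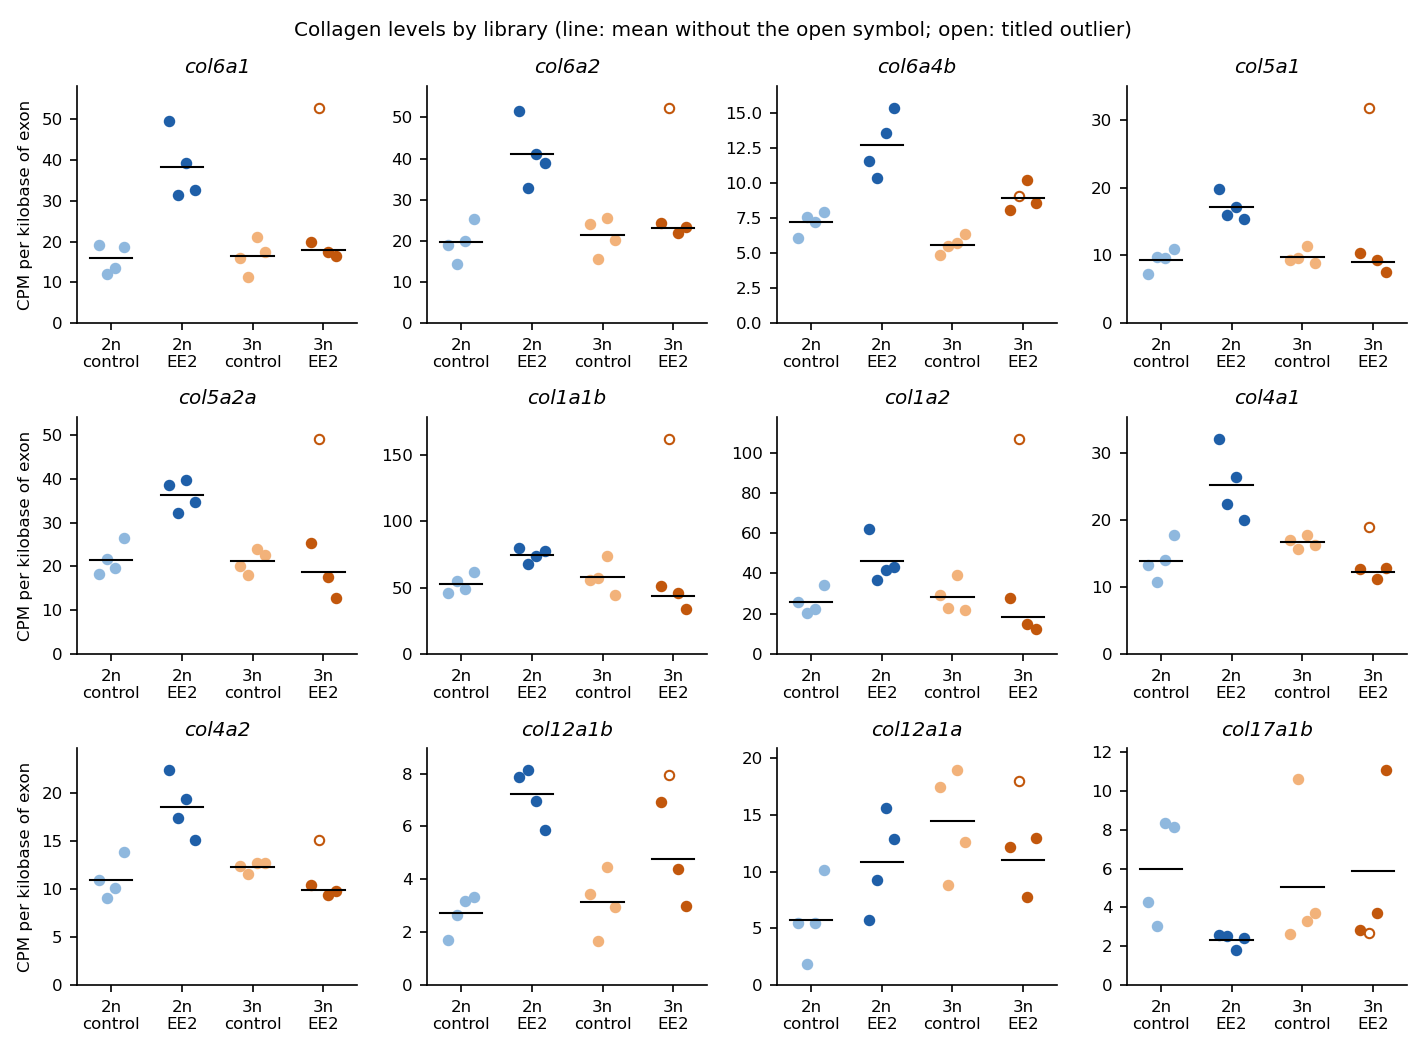
Level of selected collagen genes in each of the 16 libraries, in CPM per kilobase of exon, by group (2n diploid, 3n triploid); lines are group means without the submitter-titled outlier, drawn as an open symbol. For col6a1 the diploid EE2 libraries lie between 31.5 and 49.6, above the 11.2 to 21 of all other libraries except the open one at 52.9.

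Triploid and diploid control testes were compared to ask whether ploidy alone went with a different collagen profile. None of the 55 genes passed in edgeR (0 of 55), against 2.74% of all genes changed. At an unadjusted p under 0.05 there were 4 members (background 17.6%). DESeq2 called 1 (background 3.66%), col12a1a (log2 difference 1.38, adjusted p = 0.021). The level of col12a1a was 5.47, 1.85, 5.5 and 10.1 CPM per kilobase in diploid controls and 17.5, 8.85, 19 and 12.6 in triploid controls. The ranges overlapped, and edgeR gave a log2 difference of 1.36 ± 0.42 (SE; adjusted p = 0.11). For most of the type I, V and VI genes, including the 3 given next, the means of the 2 control groups differed by less than their SD. col1a1b was at 52.7 ± 7.2 in diploids and 57.7 ± 12.3 in triploids, col5a1 at 9.41 ± 1.51 and 9.81 ± 1.09, and col6a1 at 15.9 ± 3.58 and 16.4 ± 4.06 (SD, n = 4 each). The other type VI genes went in both directions. The triploid mean was higher for col6a2, at 19.6 ± 4.45 in diploids and 21.3 ± 4.47 in triploids. It was lower for col6a4b, at 7.21 ± 0.794 and 5.6 ± 0.618 (log2 difference −0.34, edgeR adjusted p = 0.21). It was also lower for col6a3, at 4.53 ± 1.08 and 3.51 ± 1.18 (edgeR adjusted p = 0.55), and for col6a4a, at 10.3 ± 1.46 and 9.62 ± 0.899. Of the family, 1 gene had every triploid control above every diploid control (background 4.27%), col14a1a, a FACIT gene, at 2.35 ± 0.612 against 1.61 ± 0.189 (log2 difference 0.57, edgeR adjusted p = 0.24), and 0 had every one below (background 7.38%). The family's median log2 difference was 0.02, and that of all genes −0.04.

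Under EE2, some type I, II, IV, V and VI collagen genes were lower in triploid than in diploid testes. In edgeR 10 of the 55 members were lower (18.2%) and 0 higher, against 5.82% of all genes changed, 4.77% lower and 1.05% higher. The calls comprised 3 of 5 type VI genes, 2 of 6 type IV genes and 5 of 15 fibrillar genes. This comparison uses the same diploid EE2 libraries as the EE2 comparison within diploids, so the 2 sets of values are not separate evidence. It also depends on the titled outlier. With that library included, 2 genes were called, col4a1 (adjusted p = 0.019) and col4a2 (adjusted p = 0.028) in edgeR. Without triploid EE2 replicate 3, or without replicate 4, edgeR called 4 genes. The share of all genes changed was 2.12% with the titled outlier included, 2.51% without replicate 3 and 2.79% without replicate 4.

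The 2 type IV genes had the smallest p-values of the family. col4a1 had a log2 difference between triploid and diploid EE2 testes of −1.05 ± 0.18 (SE; adjusted p = 0.0023 in edgeR), with 12.6, 11.2 and 12.8 CPM per kilobase in triploids against 19.9 to 32.1 in diploids. col4a2 had a log2 difference of −0.92 ± 0.15 (adjusted p = 0.0021 in edgeR), with 10.4, 9.45 and 9.83 against 15.1 to 22.5. The titled outlier, at 18.9 and 15.1, was just below the lowest diploid EE2 library for col4a1 and level with it for col4a2. Both genes were called in every fit that left out 1 library.

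The fibrillar genes that were lower span types I, II and V. col1a2 was at 28, 14.8 and 12.5 in triploid EE2 against 36.8 to 62.3 in diploid EE2 (log2 difference −1.33 ± 0.30, adjusted p = 0.018 in edgeR). col1a1b was at 51.0, 45.9 and 33.7 against 67.8 to 79.4 (log2 difference −0.78 ± 0.18, adjusted p = 0.017 in edgeR). In the titled outlier these 2 genes reached 107 and 162, above every other library, and with it included their log2 differences became −0.18 and −0.03. col5a1 had a log2 difference of −0.92 ± 0.15 (adjusted p = 0.0025 in edgeR) and col5a2a one of −0.96 ± 0.20 (adjusted p = 0.0096 in edgeR). Both also had no overlap between the 3 triploid and 4 diploid EE2 libraries, but with the titled outlier included the estimates were −0.21 and −0.47. col2a1b, a type II gene at a low level, was at 0.484, 0.557 and 0.296 against 0.812 to 1.46 (log2 difference −1.47 ± 0.34, adjusted p = 0.02 in edgeR), and rested on 15 to 36 read pairs in the triploid EE2 libraries. The calls of col1a1b and col1a2 were lost without triploid EE2 replicate 3 or 4, that of col1a2 also without diploid EE2 replicate 1, that of col2a1b without triploid EE2 replicate 1 or 4, and that of col5a2a without triploid EE2 replicate 3.

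Of type VI, col6a1 had a log2 difference of −1.09 ± 0.22 (SE; adjusted p = 0.010 in edgeR), with 20.0, 17.5 and 16.5 in triploid EE2 against 31.5 to 49.6 in diploid EE2. col6a2 had one of −0.83 ± 0.20 (adjusted p = 0.027 in edgeR), with 24.4, 21.8 and 23.4 against 32.8 to 51.6. col6a3 had one of −1.14 ± 0.31 (adjusted p = 0.046 in edgeR), with 5.19, 3.96 and 2.3 against 5.75 to 10.6. None of these groups overlapped. The titled outlier stood above all diploid EE2 libraries for each of the 3 genes, at 52.9, 52.4 and 16.1. The call of col6a1 was lost without triploid EE2 replicate 3 or 4. That of col6a2 was lost without any of triploid EE2 replicates 1, 3 and 4 or diploid EE2 replicates 1 and 3. That of col6a3 was lost in 9 of the 15 fits that left out 1 library (diploid control replicates 2 and 3, diploid EE2 replicates 1 and 3, triploid control replicates 1, 2 and 4, triploid EE2 replicates 3 and 4), with edgeR adjusted p up to 0.18. Among genes that did not pass, col18a1a (log2 difference −1.0, edgeR adjusted p = 0.057) and col6a4b (−0.51, edgeR adjusted p = 0.053) were close to the threshold. col18a1a passed without diploid control replicate 4 (edgeR adjusted p = 0.035), and col6a4b without diploid control replicate 1 (0.034) or diploid EE2 replicate 2 (0.024). In all, 16 members (background 12.2%) had every triploid EE2 library below every diploid EE2 library, and 4 members (background 8.05%) had every one above. Of the 55 estimates, 35 were negative and 20 positive, and the class medians ran from −1.0 for multiplexins to 0.31 for transmembrane genes.

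Whether the EE2 difference itself depended on ploidy was tested with the interaction term. It called 0 of the 55 members, and 0% of all genes, in edgeR. At an unadjusted p under 0.05 there were 13 members, against 5.32% of all genes. Estimates were negative for 36 members, including all 6 type IV and all 5 type VI genes, and positive for 19, with a median of −0.26 (0.01 over all genes). DESeq2 called 3 members (background 0.132%), with adjusted p of 5.2e-04 for col4a1, 8.3e-04 for col4a2 and 0.0073 for col5a1. The edgeR estimates for these were −1.34 ± 0.24 (adjusted p = 0.22), −1.11 ± 0.20 (adjusted p = 0.22) and −1.0 ± 0.21 (adjusted p = 0.28). For col6a1 the edgeR estimate was −1.16 (95% interval −1.75 to −0.58, adjusted p = 0.58). Without diploid control replicate 4, edgeR called 2 members, col4a1 and col4a2, with an adjusted p of 0.047 each. The share of all genes called in that fit was 0.0219%.

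The genes that modify, fold, export, process and crosslink collagen, and the genes of its receptors, were read from 5 lists. Of the 13 tested crosslinking genes, 3 were higher under EE2 in diploids and 0 lower (background 1.94% higher and 0.422% lower), and the other 10 did not pass. The list's median log2 difference was 0.27, against −0.01 over all genes. These were the lysyl oxidase family genes loxl2a (9.11 ± 1.89 CPM in controls and 32.8 ± 10.1 under EE2, SD, n = 4 each; edgeR adjusted p = 0.0029), loxl4 (13.6 ± 3.04 and 34.7 ± 10.2 CPM; edgeR adjusted p = 0.005) and loxl1 (log2 fold change 0.85 ± 0.19, edgeR adjusted p = 0.029). Of the 16 hydroxylation and glycosylation genes, 1 was higher, plod2, a lysyl hydroxylase that prepares the telopeptides for crosslinking, at 6.02 ± 0.738 and 19.2 ± 4.59 CPM (edgeR adjusted p = 0.001). The list's median log2 difference was 0.13. Of the 12 receptor genes, 2 were higher, the integrin gene itga1 (26.4 ± 4.62 and 59.4 ± 11.7 CPM; edgeR adjusted p = 8.8e-04) and the collagen uptake receptor gene mrc2 (log2 fold change 1.26 ± 0.28, edgeR adjusted p = 0.026), with a list median of 0.04. With the titled outlier included, 1 crosslinking, 1 hydroxylation or glycosylation and 1 receptor gene were called higher. In that fit 196 of all 22851 tested genes were higher, and 1.12% were changed.

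Of the 15 chaperone and export genes, 1 changed in diploids, and it was lower (background 2.36% changed and 0.422% lower). serpinh1b, which encodes a copy of the collagen-specific chaperone Hsp47, was at 7.2 ± 2.05 CPM in controls and 2.05 ± 0.33 under EE2 (SD, n = 4 each; log2 fold change −1.78 ± 0.30, adjusted p = 0.0048 in edgeR). The list's median was 0.12. None of the 10 tested procollagen proteinase and enhancer genes passed (list median 0.19). In triploids, no gene of the 5 lists passed between EE2 and control, where only 0.104% of all genes changed. The triploid mean of serpinh1b was also lower under EE2, at 6.5 ± 1.85 CPM in controls (SD, n = 4) and 2.87 ± 1.18 under EE2 (SD, n = 3).

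Between the EE2 groups, each of the 5 lists had members that were lower in triploids, and 0 were higher (background 4.77% lower and 1.05% higher). Lower members numbered 3 of 16 for hydroxylation and glycosylation, 4 of 15 for chaperones and export, 1 of 10 for proteinases, 4 of 13 for crosslinking and 3 of 12 for receptors. The list medians were −0.28, −0.09, −0.18, −0.33 and −0.21, against 0 over all genes. With the titled outlier included, 1 gene of the 5 lists was called in this comparison, a hydroxylation or glycosylation gene. The share of all genes changed with that library was 2.12%. In that library the crosslinking sum was 398 CPM, against 215 to 234 in the other triploid EE2 and 307 to 358 in the diploid EE2 libraries. Its receptor sum was 372 CPM, against 231 to 276 and 301 to 374. Examples without that library were plod2 (log2 difference −1.35 ± 0.24, edgeR adjusted p = 0.0036), the other Hsp47 gene serpinh1a (−0.93 ± 0.16, edgeR adjusted p = 0.0027), loxl1 (−1.35 ± 0.21, edgeR adjusted p = 0.0014), the type IV crosslinking peroxidase gene pxdn (−0.8 ± 0.12, edgeR adjusted p = 0.0012) and itga1 (−1.12 ± 0.17, edgeR adjusted p = 9.1e-04). Between control groups, p3h4, a component of the lysyl hydroxylation complex (−0.82 ± 0.17, edgeR adjusted p = 0.016), and pxdn (−0.45 ± 0.11, edgeR adjusted p = 0.047) were the only genes of these lists to pass, both lower in triploids. They were 1 of 16 hydroxylation and glycosylation genes and 1 of 13 crosslinking genes. The background was 2.74% of all genes changed and 2.16% lower.

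Some markers of cells that make collagen differed between the same groups. Summed smooth muscle and peritubular markers were at 674 to 1154 CPM in diploid controls, 1990 to 2641 in diploid EE2, 561 to 737 in triploid controls and 967 to 1099 in triploid EE2. In edgeR, 6 of the 10 tested markers were higher under EE2 in diploids (background 1.94%) and 7 were lower in triploid than in diploid EE2 testes (background 4.77%), with the same counts when the titled outlier was included. Summed fibroblast markers were at 192 to 232, 260 to 379, 175 to 218 and 169 to 176 CPM in the same order of groups, with 2 of 8 higher under EE2 in diploids and 3 of 8 lower in triploids under EE2 against the same backgrounds, and 0 in either comparison with the titled outlier included. In triploids none of these 18 markers passed between EE2 and control in edgeR without the titled outlier. With it included, 3 of the 10 smooth muscle and peritubular markers were higher under EE2 in triploids, against 0.166% of all genes changed. The triploid smooth muscle sums of the EE2 and control libraries did not overlap, and the fibroblast sums did. Among the 15 libraries, summed endothelial markers (174 to 230, 187 to 290, 175 to 199 and 200 to 213 CPM) and leukocyte markers (47.4 to 80.1, 80.5 to 242, 56.5 to 63.3 and 67.9 to 83.3 CPM) also reached their highest values in diploid EE2. The leukocyte sum of 242 CPM was that of diploid EE2 replicate 1, with 80.5, 110 and 106 CPM in replicates 2 to 4. In the titled outlier the fibroblast sum was 397 CPM, the smooth muscle sum 1193 CPM and the leukocyte sum 518 CPM. Cartilage and bone markers were at 25.7 to 54.6 CPM over the 15 libraries. Marker sums of other tissues varied more, at 37.6 to 460 CPM for liver, 35.9 to 198 for skin and 8.79 to 139 for skeletal muscle. In the titled outlier these were 465, 120 and 43.1 CPM. Leydig cell markers were lower under EE2 in both ploidies (121 to 505 CPM in diploids and 145 to 281 CPM in triploids, against 913 to 3547 CPM in controls). The part of these cell types and tissues in the collagen differences was not tested.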

How the data were processed

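RNA was extracted from testes and made into strand-specific libraries after ribosomal RNA depletion, per the labels' protocols. The deposited table holds raw counts of read pairs per gene, which the authors made from STAR alignments with featureCounts 2.0.6, counting reverse-stranded pairs over exons of the Ensembl release 113 annotation of GRCz11, per the file headers and the submitters' processing notes. The STAR version was not given in the sources used here. No option for multi-mapping or overlapping pairs was set, so pairs shared by close paralogues or by overlapping genes can be missing. This touches the 2 overlapping col7a1l genes. The deposited table also gives each gene's summed exon bases, per the file headers, which were used for levels per kilobase. Symbols were matched to the table's gene IDs from an Ensembl name list. It gave 22 members human-style symbols in capitals; each was given the single zebrafish copy name (none, a or b as suffix) that RefSeq places on the same chromosome of assembly GRCz12tu, so these copy names rest on chromosome alone. Gene positions are those of the deposited table, in GRCz11.

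Members and gene lists were chosen with earlier results of these data known, so they do not support each other. Counts were tested with edgeR 4.0.16 in R 4.3.3 (TMM scaling, filterByExpr, quasi-likelihood test, Benjamini-Hochberg adjustment over 23007 genes, threshold 0.05) on 15 libraries in 4 groups, which share 1 estimate of spread; the fit was tested on simulated data. Alternatives were the titled outlier included, RLE size factors, no low-count filter, DESeq2 1.42.0, a replicate block, each library left out, and both first diploid replicates left out. Named genes were those called in any comparison, a fixed set of 16, and the 2 highest of each class; other members and marker ranges were added to complete a class after their values were seen. From the assembly lists, the 3 genes with the smallest p in each comparison could be named. Wilson intervals cover counting error only. With 4 libraries a group, spread between libraries rather than depth limits the precision of the abundant members.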

Additional observations from a re-analysis of the deposited data

Results flagged for a closer look

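Dixon's criterion was applied to 108 sets of 4 libraries, each a named collagen gene or the collagen share in a group. The 26 named genes include those called in a comparison, and the other members were not screened. Of these sets, 19 (17.6%) held a library outside the others. Chance alone gives about 5%, and genes of 1 library are not independent. The titled outlier, triploid EE2 replicate 2, held 8 of them. Its levels were 44.5 CPM per kilobase for col1a1a (5.24 to 11.4 in the other 3), 162 for col1a1b (33.7 to 51.0), 107 for col1a2 (12.5 to 28), 15.1 for col4a2 (9.45 to 10.4), 31.9 for col5a1 (7.55 to 10.4), 52.9 for col6a1 (16.5 to 20.0) and 52.4 for col6a2 (21.8 to 24.4). Its collagen share of 0.531% was also outside the triploid controls, at 0.228 to 0.286%. The library was not used in the main comparisons.

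The other outlying values were spread over 7 libraries. Diploid control replicate 4 was high for col18a1a (23.7, against 12.5 to 14.4), col1a1a (16.9, against 6.39 to 7.37) and col6a3 (6.14, against 3.88 to 4.15). Diploid control replicate 1 was low for col2a1b (0.393, against 0.875 to 0.954), and diploid EE2 replicate 2 was low for col7a1 (2.69, against 7.01 to 7.81). Triploid control replicate 1 was high for col4a5 (29.5, against 15.3 to 16.4). Triploid control replicate 2 was high for col17a1b (10.6, against 2.63 to 3.7) and low for col18a1b (1.3, against 1.53 to 1.57). Triploid EE2 replicate 4 was high for col17a1b (11.1, against 2.69 to 3.73) and low for col18a1a (7.6, against 13.6 to 14.8), and triploid EE2 replicate 3 was high for col4a5 (15.8, against 6.2 to 7.54).

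The summed type IV level moved in opposite directions with EE2, by 24.8 CPM per kilobase in diploids (51.4 ± 9.97 to 76.2 ± 6.59, SD, n = 4 each) and by −15.6 in triploids (63.9 ± 6.75, n = 4, to 48.4 ± 5.06, n = 3, SD). The type IV genes moved unequally. col4a1 went from 13.9 ± 2.95 to 25.2 ± 5.32 in diploids and from 16.7 ± 0.875 to 12.2 ± 0.842 in triploids. col4a5 went from 12.9 ± 6.97 to 15.7 ± 1.72 in diploids and from 19.2 ± 6.86 to 10.2 ± 4.83 in triploids, where control replicate 1 was at 29.5. In triploids col4a3, col4a4 and col4a6 had slightly higher means under EE2. The difference between these changes in the sum was not tested.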

How the results depend on the processing

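The number of collagen genes called depended most on the titled outlier. With it included, 4 in place of 8 genes were called for EE2 in diploids and 2 in place of 10 for ploidy under EE2; the share of all genes changed fell alike, from 2.36% to 1.12% and from 5.82% to 2.12%. The log2 estimates of the 8 genes called in diploids ran from 0.77 to 1.41 without that library and from 0.75 to 1.4 with it. The cause was not tested. DESeq2 called 1 gene for EE2 in triploids, 1 for ploidy in controls and 3 for the interaction (0.311%, 3.66% and 0.132% of all 32520 genes changed), where edgeR called 0 in each. DESeq2 also called 12 and 13 genes for EE2 in diploids and ploidy under EE2 (3.75% and 6.36% of all genes changed). For the last 2 comparisons, RLE factors gave 8 and 10 genes (2.36% and 5.52% of all genes), no low-count filter 8 and 9 (1.43% and 3.44%), and leaving out both first diploid replicates 6 and 8 (2.11% and 6.78%). Over the 15 fits with 1 library left out, the calls ranged from 6 to 9 for EE2 in diploids (1.11 to 2.85% of all genes), from 4 to 11 for ploidy under EE2 (2.51 to 9.28%) and from 0 to 2 for the interaction (0 to 0.0219%), and stayed at 0 for the other 2 comparisons. Of the 18 called values, 9 were kept in every omission. None of these 18 changed sign in any alternative. Of the 112 uncalled values of the 26 named genes, 44 changed sign in at least 1 alternative, and 14 did so with the titled outlier included. Same-numbered libraries deviated together little (correlation −0.169 to 0.136 over 21 pairs, 2 of them over 0.1), and no library matched best with its own number, so the numbers were not taken as pairs. With the replicate block, edgeR called 7 genes in diploids exposed to EE2, 10 for ploidy under EE2 (1.77% and 4.8% of all genes) and 0 in each of the other 3 comparisons; col5a2a lost its call in the first, and in the second col2a1b lost its call and col6a4b gained one (adjusted p = 0.035). Depth limits the low members, such as col8a1a and col9a1b.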
